A study of Caenorhabditis elegans with 15 samples.

Results

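The MES and H3K9 methylation chromatin genes are a group of 8 Caenorhabditis elegans genes, mes-2, mes-3, mes-4, mes-6, met-1, met-2, set-25 and hpl-2, whose products write or read methyl marks on histone H3. Each gene was followed by the brightest probe set that carried its symbol alone in the platform annotation, by mean over 15 arrays. That rule measured 7 of the 8 genes, of 17138 genes measured in all, because the only probe set listing mes-6 also lists another gene, so mes-6 is not given a level. The group was chosen to follow the decay of a maternal supply over 0 to 4 h. Of the 7 genes, 0 were called lower at 4 h than at 0 h, where 9.57% of all probe sets were, a call being a limma adjusted p under 0.05 over all probe sets. Most values of mes-3 and met-1 at 0 h lay near background, which left little room for a called fall. RefSeq's gene table places mes-2 on chromosome II, mes-3 and met-1 on I, mes-4 on V, mes-6 on IV, and met-2, set-25 and hpl-2 on III.

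As background, mothers load eggs with transcripts that support the first divisions and are then degraded, while the embryo's own genome switches on. MES-2, MES-3 and MES-6 form the worm Polycomb repressive complex PRC2, which methylates H3K27, a lysine in the tail of histone H3. MES-4 and MET-1 methylate H3K36, MET-2 and SET-25 methylate H3K9, and HPL-2 is a heterochromatin protein of the HP1 family. The maternal-effect sterile (mes) genes are known for their need in the mother for the survival of the germ line of the offspring, and MET-2 with SET-25 for holding heterochromatin at the nuclear periphery of embryos.

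Wild-type N2 hermaphrodites, grown at room temperature on OP50 bacteria, all carried injected dsRNA for a trio of genes, mex-1, lit-1 and pal-1, which targets their transcripts by RNA interference. RNA was prepared from embryos dissected with 2 to 4 cells and incubated for 0, 1, 2, 3 or 4 h, with 3 Affymetrix arrays (A, B and C) per time. As background, these 3 genes act in the fates of early blastomeres, so the course is not one of untreated embryos, which were not analysed here. The series title names fate in the MS lineage, and the comparisons between times ask how transcript levels moved as these embryos developed. RNA came from whole embryos, so fewer cells of a type and less RNA per cell cannot be told apart. The number of arrays limits the precision. The labels do not state separate mothers or days, so the p-values speak only of the spread among these samples and part of it may be technical.

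Array medians (log2) spanned 3.17 to 3.42. Across probe sets, arrays of the same hour correlated at 0.914 to 0.981 at 1 h and at 0.962 to 0.985 at the other hours. In the labels the time tag of array 1 h B reads 2 h and that of 1 h C reads 3 h, against their titles. The titles were followed, and the calls of mes-3 and mes-4 are also given by the tags. Array 1 h C correlated at 0.981 with 1 h A and at 0.871 to 0.882 with the 3 h arrays. Array 1 h B correlated at 0.914 with 1 h A and at 0.850 to 0.878 with the 2 h arrays. By correlation both arrays were thus nearer to 1 h A than to the arrays of their tagged hours. Array 1 h B stood apart. Its hybridisation controls averaged 11.70, against 8.64 to 11.10 on the other arrays, and its adult yolk genes averaged 6.90, against 3.11 to 4.47. Early embryo and oocyte markers, 14 of 14 measured, averaged 8.72 to 9.80 on the arrays of 0 h, 5.69 to 7.38 on those of 1 h, 4.25 to 4.80 on those of 2 h, 3.79 to 3.95 on those of 3 h and 3.93 to 3.99 on those of 4 h. A value of 3.22, the highest of 15 background control probe sets on any array, served as a mark of background. The injected genes had 0 of 3 members called between 4 h and 0 h, or 1, higher, by unadjusted p under 0.05.

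Levels differed widely within the group, and several lay near background. The mean of hpl-2 over the 15 arrays was above that of 96.6% of genes and the mean of mes-4 above that of 87.5%, while mes-2 stood above 64.3%, set-25 above 68.2%, met-2 above 53.5%, mes-3 above 50.3% and met-1 above 43.4%. Ranks compare probe sets of unequal response and are no order of abundance. Arrays above the background mark numbered 15 of 15 for hpl-2, mes-4 and set-25, 13 for mes-2, 11 for met-2, 7 for mes-3 and 4 for met-1. A change of mes-3, met-1 or met-2 was therefore read close to background, where these values compress differences.

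**Figure D1:**
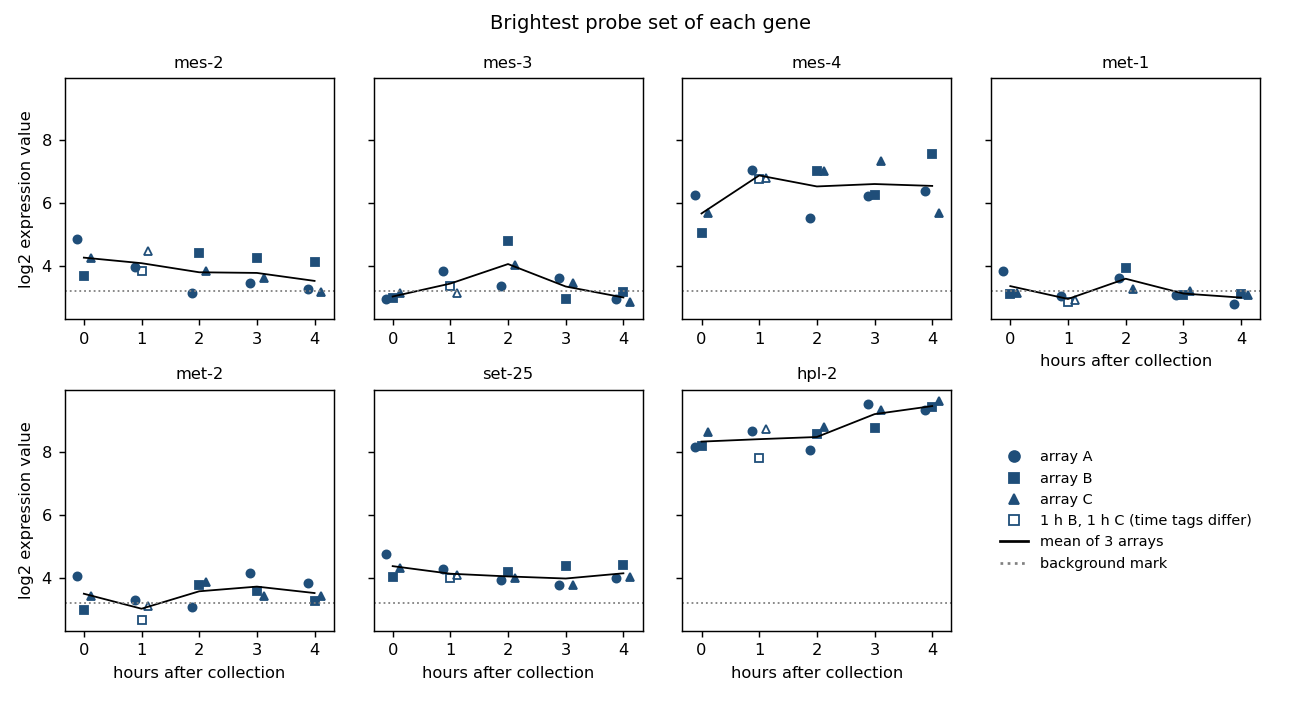
Log2 expression values of the brightest probe set of each of the 7 measured genes against hours after collection, with 1 point per array, a line through the means of 3 arrays, open symbols for the 1 h arrays with other time tags and a dotted line at the background mark of 3.22. The hpl-2 values at 4 h all lie above those at 0 h, mes-3 peaks at 2 h, and met-1 hugs the mark.

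Between 4 h and 0 h, limma called 1 of the 7 genes higher, hpl-2, where 7.11% of all probe sets were called higher, and 0 lower, where 9.57% were. At an unadjusted p under 0.05 the counts were also 1 higher and 0 lower. The median difference over the 7 genes was -0.03 (log2), against 0.096 over all genes. The 3 arrays of 4 h did not overlap the 3 of 0 h for 2 of the 7 genes, hpl-2 above and met-1 below, where 34.2% of all probe sets did not overlap. Among the 15 probe sets of these 7 genes, 1 was called higher and 0 lower. The hpl-2 probe set called was the brightest of its gene only through its values at 3 h and 4 h, so the call is not independent of that choice.

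Within PRC2, mes-2 encodes the catalytic subunit, the homologue of Enhancer of zeste. Its log2 values were 4.86, 3.70 and 4.26 at 0 h, 3.99, 3.84 and 4.47 at 1 h, 3.16, 4.42 and 3.86 at 2 h, 3.48, 4.25 and 3.64 at 3 h, and 3.27, 4.14 and 3.195 at 4 h. The hourly means were 4.28, 4.10, 3.81, 3.79 and 3.54, but array 4 h B lay above array 0 h B and the groups overlapped. The difference of 4 h minus 0 h was -0.74 ± 0.38 (log2, SE), with a 95% interval of -1.57 to 0.09, and did not pass the test (limma adjusted p = 0.25). It was the most negative of the 7, with 12.9% of genes more negative.

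The other measured PRC2 subunit, mes-3, encodes a protein found in nematodes that is needed for the activity of the complex. On its brightest probe set, 175611_at, the log2 values were 2.97, 3.01 and 3.14 at 0 h, 3.84, 3.36 and 3.15 at 1 h, 3.37, 4.81 and 4.04 at 2 h, 3.62, 2.97 and 3.48 at 3 h, and 2.97, 3.196 and 2.87 at 4 h. All 3 arrays of 2 h lay above all 3 of 0 h and all 3 of 4 h, and the values at 0 h and 4 h lay below the background mark.

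The mes-3 value was 1.03 ± 0.30 (log2, SE) higher at 2 h than at 0 h, a 2.04-fold difference that passed the test (limma adjusted p = 0.035). It was the 1 gene of the 7 called higher at 2 h, where 7.25% of all probe sets were, and 0 of the 7 were called lower, where 8.53% were. The difference of 4 h minus 2 h was -1.06 and missed the threshold (adjusted p = 0.068). The late change minus the early change, that is 4 h minus 2 h less 2 h minus 0 h, was -2.09 ± 0.53 and passed it (adjusted p = 0.023). It was the 1 gene of the 7 called lower in this comparison, where 5.54% of all probe sets were, and 0 were called higher, where 4.51% were.

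The second probe set of mes-3, 188017_s_at, had log2 values of 2.95, 2.59 and 2.86 at 0 h, 2.86, 2.65 and 2.69 at 1 h, 3.03, 3.75 and 3.76 at 2 h, 3.83, 3.42 and 3.56 at 3 h, and 2.61, 3.05 and 2.70 at 4 h. The 2 h arrays again lay above all 3 arrays of 0 h, the 3 h arrays stood as high, and 2 h A, at 3.03, lay under array 4 h B, at 3.05. This probe set was above the background mark on 5 of 15 arrays, 2 h B, 2 h C and the 3 of 3 h. It was 0.71 ± 0.20 higher at 2 h than at 0 h (limma adjusted p = 0.028), and its late change minus early change was -1.44 ± 0.35 (adjusted p = 0.018). At 3 h it was called higher than at 0 h, by 0.80 (adjusted p = 0.015). There 175611_at differed by 0.32 and was not called (adjusted p = 0.61). Its own 2 h minus 1 h difference of 0.78 was called (adjusted p = 0.027), but not with values floored at the mark (adjusted p = 0.18). The F test over all times called it (adjusted p = 0.008) and missed the brightest probe set (adjusted p = 0.11). With values floored at the mark, 188017_s_at differed by 0.36 for 2 h minus 0 h and by -0.71 for the late minus early change, and neither was called (adjusted p = 0.13 and 0.10). With each array centred on its ribosomal protein genes the late change minus the early change was -0.09 on 188017_s_at and -0.75 on 175611_at (adjusted p = 0.84 and 0.19). On both probe sets the call at 2 h was lost when some single arrays were left out. Leaving out 0 h C lost it on both although the difference grew. On 175611_at it was lost without 0 h A, 0 h B, 0 h C, 2 h B or 2 h C, where the difference ran from 0.66 without 2 h B to 1.08 without 0 h C. On 188017_s_at it was lost without 0 h B, 0 h C, 2 h B or 2 h C, with differences of 0.59 to 0.74. The replicate block left the 2 h call on neither (adjusted p = 0.061 on 175611_at and 0.053 on 188017_s_at). With the 2 conflicting arrays placed by their tags, the differences were 0.85 and 0.50 and neither was called (adjusted p = 0.11 and 0.42), and with each array centred on its ribosomal protein genes they were -0.31 and -0.62. Another 34 genes followed the brightest mes-3 probe set with a Pearson correlation over 0.8 across the 15 arrays. The most alike were exc-12 (0.89), fbxb-36 (0.89) and hasp-1 (0.88).

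Among the H3K36 enzymes, mes-4 encodes a methyltransferase of the NSD type, known for keeping the mark on genes that were active in the mother's germ line. Its brightest probe set, 188620_s_at, had log2 values of 6.28, 5.07 and 5.69 at 0 h, 7.06, 6.78 and 6.81 at 1 h, 5.54, 7.04 and 7.04 at 2 h, 6.22, 6.26 and 7.36 at 3 h, and 6.39, 7.58 and 5.69 at 4 h. The arrays titled 1 h lay above all 3 of 0 h, and from 2 h on the spread was wide and overlapped 0 h. The difference of 4 h minus 0 h was 0.88 ± 0.52, with a 95% interval of -0.26 to 2.01 (limma adjusted p = 0.32), and that of 1 h minus 0 h was 1.21 ± 0.52 (adjusted p = 0.21).

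The second probe set of mes-4, 175748_s_at, showed a clearer hour. Its log2 values were 5.83, 4.53 and 5.62 at 0 h, 7.50, 6.55 and 7.63 at 1 h, 5.72, 5.36 and 5.92 at 2 h, 5.36, 5.26 and 6.24 at 3 h, and 5.33, 6.34 and 5.87 at 4 h. The arrays titled 1 h were the 3 highest of the 15. They averaged 1.90 ± 0.40 above 0 h, or 3.73-fold (limma adjusted p = 0.009), and the difference of 2 h minus 1 h was -1.56 (adjusted p = 0.029). Of the 7 genes by brightest probe set, 0 were called at 1 h against 0 h, with 1 higher at an unadjusted p under 0.05, where 9.38% of all probe sets were called. For 2 h against 1 h the count was likewise 0, with 1 higher unadjusted, where 9.26% were called.

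The rise of that probe set at 1 h kept its call without any 1 array, with differences of 1.50 to 2.24. It rests on the 1 h group, in which array 1 h B was the lowest of the 3 for both mes-4 probe sets. The 5 measured yolk genes averaged 3.25 to 6.90 on the 1 h arrays, against 3.51 to 4.47 at 0 h, with vit-2 under the background mark on all 15 arrays. The 13 measured sperm markers averaged 3.71 to 4.36 at 1 h, against 3.32 to 3.48 at 0 h, and the part of either in the result was not tested. Without 1 h B and 1 h C, array 1 h A alone was 2.17 above 0 h (adjusted p = 0.049), and by the tags the same 2.17 was not called (adjusted p = 0.34). Both fits assume that the lone array varies like the arrays of the other hours. The 2 h minus 1 h difference was -1.61 by the tags (adjusted p = 0.87), and with only the compared times fitted the rise of 1.90 was not called (adjusted p = 0.087). Centred on the hybridisation controls, which were high on 1 h B, the difference was 0.72 (adjusted p = 0.32). The fall at 2 h lost its call without 1 h A, 1 h C, 2 h A, 2 h B or 2 h C, with differences of -1.36 to -1.68. Both mes-4 probe sets carry the suffix of sets that can match several transcripts, and their correlation over 15 arrays was 0.58, so which transcript moved at 1 h was not tested. The genes most like mes-4 by brightest probe set were tbcd-1 (0.81), F31B12.3 (0.79) and zen-4 (0.78).

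The other H3K36 enzyme, met-1, encodes the homologue of yeast Set2 and was measured by a single probe set. Its values were 3.86, 3.114 and 3.14 at 0 h, 3.06, 2.88 and 2.95 at 1 h, 3.62, 3.93 and 3.27 at 2 h, 3.08, 3.103 and 3.22 at 3 h, and 2.81, 3.107 and 3.102 at 4 h (log2). The 4 h arrays lay below those of 0 h, with the nearest pair at 3.107 on 4 h B and 3.114 on 0 h B, both under the background mark. The difference of 4 h minus 0 h was -0.36 ± 0.20 (95% interval -0.81 to 0.08, limma adjusted p = 0.29). Its 2 h minus 1 h difference of 0.64 also missed the threshold (adjusted p = 0.076).

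**Figure D2:**
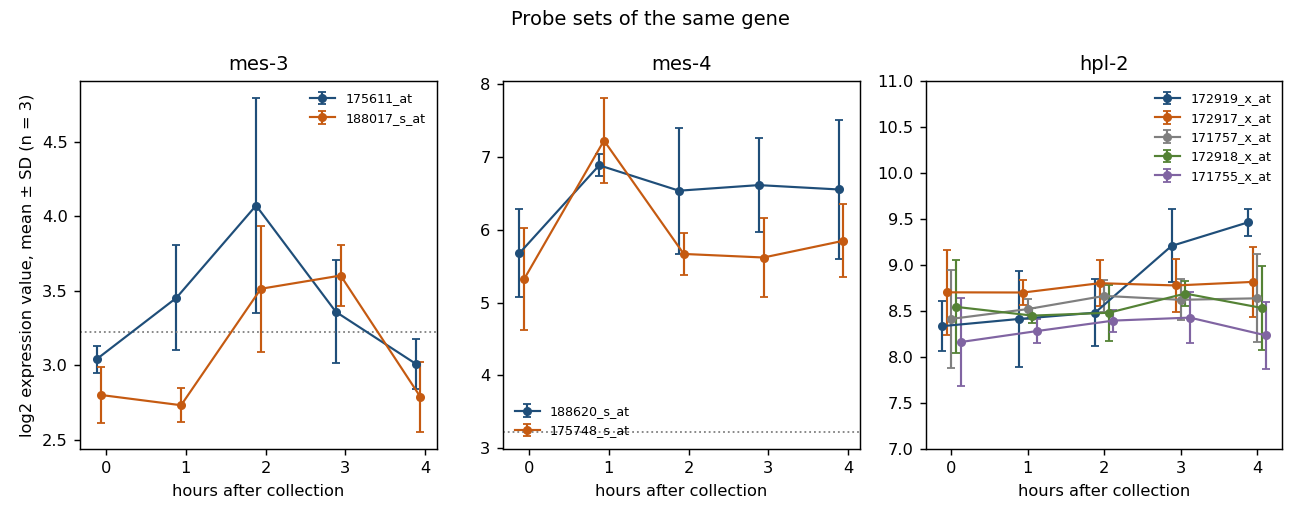
Mean log2 expression value with SD of 3 arrays against hours after collection for each probe set of mes-3, mes-4 and hpl-2, with a dotted line at the background mark in the panels for mes-3 and mes-4. Both mes-3 probe sets are high at 2 h, one mes-4 probe set stands high at 1 h alone, and of the 5 hpl-2 probe sets only 172919_x_at lies higher at 3 h and 4 h.

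The H3K9 enzymes showed no called change. MET-2, the SETDB1 homologue, deposits the first methyl groups, and SET-25 can add the last. For met-2 the log2 values were 4.08, 2.99 and 3.44 at 0 h, 3.29, 2.67 and 3.12 at 1 h, 3.09, 3.78 and 3.87 at 2 h, 4.15, 3.60 and 3.44 at 3 h, and 3.85, 3.28 and 3.44 at 4 h. These overlapped at 4 h and 0 h, with a difference of 0.02 ± 0.31 (95% interval -0.64 to 0.69, limma adjusted p = 0.98). For set-25 they were 4.77, 4.04 and 4.33 at 0 h, 4.30, 4.01 and 4.11 at 1 h, 3.95, 4.20 and 4.01 at 2 h, 3.79, 4.38 and 3.78 at 3 h, and 4.01, 4.41 and 4.04 at 4 h. The set-25 groups also overlapped, and the 4 h minus 0 h difference was -0.23 ± 0.20 (95% interval -0.67 to 0.22, adjusted p = 0.53).

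Both intervals leave room for a shift of a fraction of a log2 unit either way, and a p over the threshold does not show equal levels. The second probe sets gave 4 h minus 0 h differences of 0.17 for met-2 and 0.21 for set-25, neither called, and correlated with the first at 0.28 and -0.03 over 15 arrays. Among the 21 pairs of genes, the correlation over the arrays ran from -0.34 to 0.77, the highest being mes-2 with set-25, and arrays share hour and scaling. The genes most like met-2 were pola-1 (0.84), lin-23 (0.83) and mcm-7 (0.82), and those most like set-25 were fln-1 (0.86), T20F5.6 (0.84) and scl-2 (0.83). For mes-2 they were B0495.7 (0.81), pqn-51 (0.81) and wago-4 (0.78), and for met-1 ehs-1 (0.83), phac-1 (0.81) and pdk-1 (0.79).

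For hpl-2, whose product reads the H3K9 mark, 1 of 5 probe sets was called between 4 h and 0 h. On that probe set, 172919_x_at, the brightest by a mean of 8.78 against 8.76 for the next, the log2 values were 8.15, 8.21 and 8.65 at 0 h, 8.68, 7.81 and 8.74 at 1 h, 8.08, 8.57 and 8.79 at 2 h, 9.53, 8.76 and 9.32 at 3 h, and 9.32, 9.44 and 9.62 at 4 h. The 3 arrays of 4 h lay above the 9 arrays of 0 h, 1 h and 2 h, and the means were 8.33 at 0 h, 8.41 at 1 h and 8.48 at 2 h. At 4 h the level averaged 9.46 ± 0.15, against 8.33 ± 0.27 at 0 h (SD, n = 3 each). The difference of 1.13 ± 0.28, or 2.19-fold, had a 95% interval of 0.53 to 1.73 and passed the test (limma adjusted p = 0.012). The next brightest probe set, 172917_x_at, averaged higher at 0 h, 1 h and 2 h, at 8.70, 8.70 and 8.80. It averaged 8.78 at 3 h and 8.82 at 4 h, where 172919_x_at averaged 9.21 and 9.46. The rule thus chose 172919_x_at through the hours in which it is high, and its call is not independent of that choice.

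The rise on 172919_x_at depended on the scale. It kept its call in 15 of 15 fits that left out an array, with differences of 1.04 to 1.29. Those fits kept the same probe set, so they are not independent of its choice either. Centred on the hybridisation controls it was 0.17 (adjusted p = 0.82), and relative to the ribosomal protein genes, whose average ran from 10.01 on array 0 h A to 11.70 on array 4 h A, it was -0.20. From 2 h to 4 h the later value was 0.98 higher and missed the threshold (adjusted p = 0.063), though the fit with a replicate block called it (adjusted p = 0.039). The F test over all times called hpl-2, on this probe set, as 1 of the 7 genes, with 3 at an unadjusted p under 0.05, where 20.5% of all probe sets were called. On the other hpl-2 probe sets its adjusted p was 0.87 to 0.99.

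The other 4 probe sets of hpl-2 did not move with it. Their differences of 4 h minus 0 h were 0.11 on 172917_x_at, 0.22 on 171757_x_at, -0.01 on 172918_x_at and 0.07 on 171755_x_at, with adjusted p of 0.65 to 0.99. Correlations over the 15 arrays were 0.58 to 0.92 among these 4 and 0.22 to 0.37 between them and 172919_x_at. RefSeq lists 3 proteins for hpl-2, and the suffix of all 5 probe sets marks probes that may also bind other transcripts, so whether the rise belongs to an isoform or to another gene was not tested. Another 64 genes followed 172919_x_at with a correlation over 0.8. The most alike were F57B9.1 (0.90), pals-1 (0.90) and ent-2 (0.89). Each was called higher at 4 h than at 0 h, which their choice by likeness to this probe set made likely. The mean of pals-1 over the arrays, 3.03, lay under the background mark.

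In the remaining steps, 0 of the 7 genes were called in either direction. For 4 h against 2 h, unadjusted p-values under 0.05 counted 1 higher and 2 lower, where 5.61% of all probe sets were called. For 3 h against 2 h the unadjusted counts were also 1 and 2, where 2.73% were called. For 4 h against 3 h both were 0, where 1.26% were called.

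**Figure D3:**
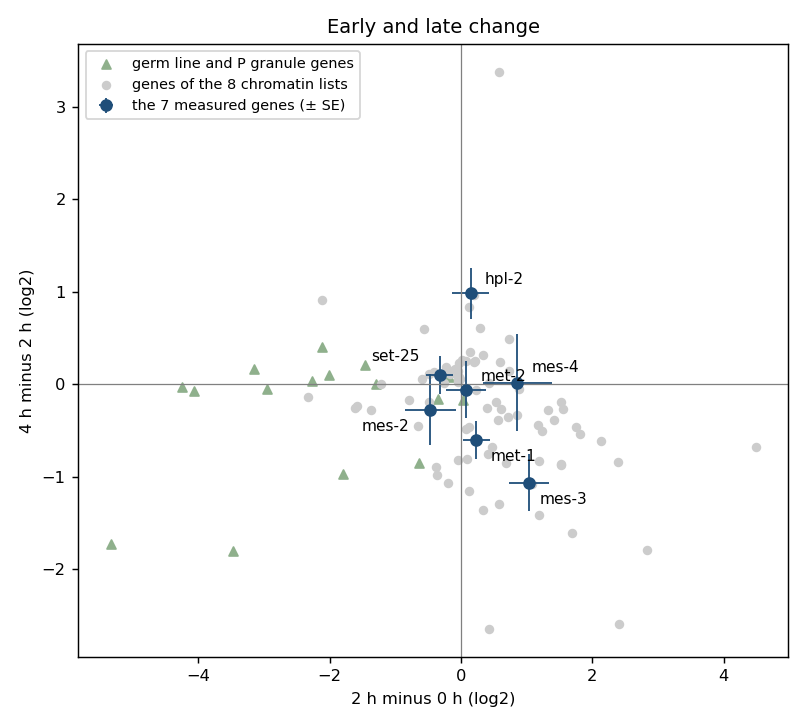
The 4 h minus 2 h difference against the 2 h minus 0 h difference (log2) for the 7 measured genes with SE bars, the genes of 8 chromatin lists and the germ line and P granule genes, where both axes share the 2 h arrays. The mes-3 point lies to the lower right, hpl-2 lies above the others near 0 on the early axis, and the germ line genes spread to the left.

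Most germ line and P granule genes declined on the same arrays. Of 16 germ line and P granule genes, all measured, 12 were called lower at 4 h than at 0 h and 0 higher, with a median difference of -2.07. The translational regulator gene nos-2, under the background mark on all 3 arrays of 4 h, fell by at least 6.52, measured down to the mark (log2, limma adjusted p = 9.0e-10 with values floored at the mark). The P granule gene deps-1 fell by 5.28, and pie-1, whose product represses transcription in germ line blastomeres, fell by 4.28 (adjusted p = 1.8e-06 and 4.0e-07). With every value under the mark set to it, the count of 12 and the median of -2.07 were the same. By 2 h, 11 of the 16 were already called lower than at 0 h. Over all probe sets, 9.57% were called lower at 4 h than at 0 h and 8.53% at 2 h than at 0 h. In both comparisons 0 of the 7 chromatin genes were called lower, which for so few genes is near those shares. The difference between these groups of genes was not tested. At 0 h, arrays above the mark numbered 0 of 3 for mes-3, 1 for met-1, 2 for met-2 and 3 for the other members. A fall of mes-3 or met-1 thus had little room to be called. The count of germ line genes called lower ran from 11 to 16 over every alternative run, with 0 called higher in each.

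Partners of the H3K9 pathway moved in both directions. Of 16 listed genes 14 were measured, and 1 was called higher and 2 lower at 4 h than at 0 h, with a median of 0.08. The second HP1 gene, hpl-1, had hourly means of 6.30, 4.73, 8.05, 7.77 and 7.59 (log2) over the course of 0 h to 4 h, with the low point at 1 h. Against 0 h the difference was -1.57 at 1 h (limma adjusted p = 0.013), 1.75 at 2 h (adjusted p = 0.003) and 1.29 at 4 h (adjusted p = 0.023). The low point rests on the group with arrays 1 h B and 1 h C, whose time tags differ, and is not given here without them. The genes that fell were set-32, a SET domain gene related to set-25, by 2.46, and cec-3, a chromodomain gene, by 1.21. The gene cec-4, whose product anchors methylated H3K9 at the nuclear envelope, differed by 1.28 and was not called at 4 h (adjusted p = 0.18). Its hourly means were 9.06, 7.96, 10.88, 10.93 and 10.34, and the F test over all times called it (adjusted p = 0.006).

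**Figure D4:**
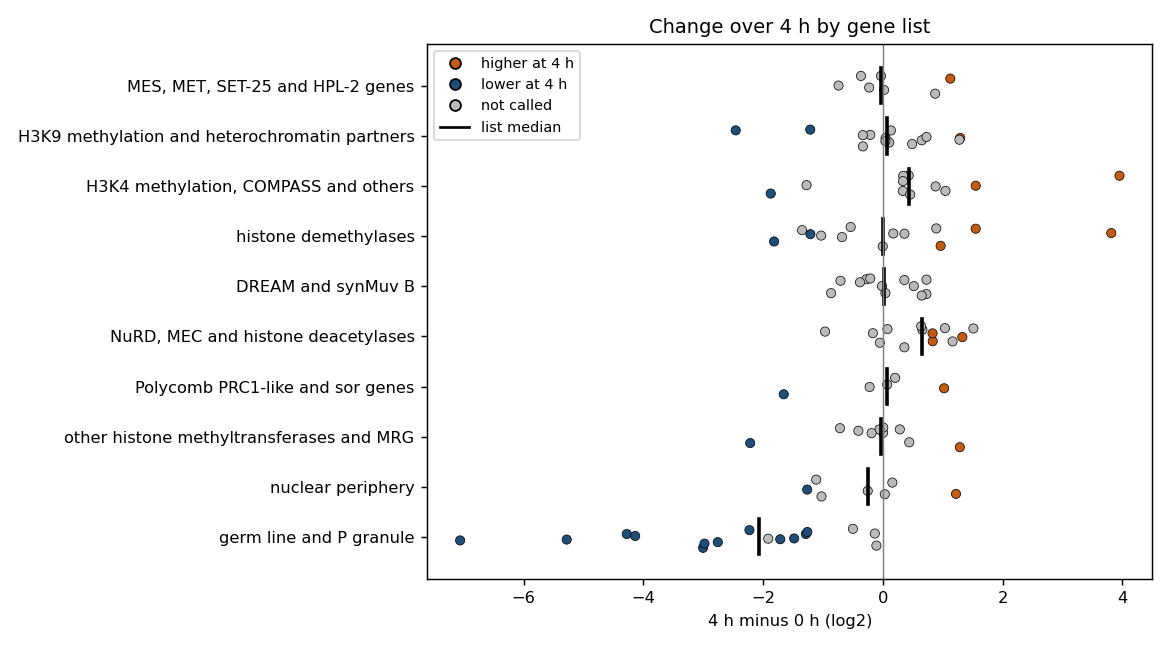
Differences of 4 h minus 0 h (log2) for each measured gene of the group, of 8 chromatin lists and of the germ line and P granule list, coloured by limma's call, with a bar at each list's median. The germ line list lies to the left of 0 with a median of -2.07, while the medians of the chromatin lists lie between -0.25 and 0.66.

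The enzymes that oppose or parallel the group gave mixed counts. Among 14 listed histone demethylases 13 were measured, with 3 called higher and 2 lower. The H3K27 demethylase genes jmjd-3.2 and utx-1 rose by 3.82 and 1.55, while jhdm-1, an H3K36 demethylase homologue, fell by 1.82. The jmjd-3.2 mean was 7.16 ± 0.17 at 4 h, against 3.35 ± 0.20 at 0 h (SD, n = 3 each, limma adjusted p = 2.5e-06), and the mean at 2 h was 7.84. In the list for H3K4 methylation, 11 of 12 were measured, 2 were higher, set-30 and again utx-1, and 1 lower. With values floored at the mark, set-30, under it on all arrays of 0 h, rose by at least 3.51 (limma adjusted p = 0.012). Without the floor, set-17 fell by 1.87 (adjusted p = 8.0e-04). Of the Polycomb PRC1-like genes, 5 of 5 measured, sor-1 rose by 1.02 and mig-32 fell by 1.65.

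Of the other histone methyltransferases, 10 of 12 were measured, with 1 higher and 1 lower. The histone H4 methyltransferase gene set-1 rose by 1.29, and the arginine methyltransferase gene prmt-1 fell by 2.21 (limma adjusted p = 6.3e-04 and 0.049). The SET domain gene set-12 had its highest mean at 2 h, 8.67, and differed by 2.41 for 2 h minus 0 h and by -2.59 for 4 h minus 2 h (adjusted p = 2.0e-06 and 2.2e-06). The NuRD and deacetylase list, 13 of 13 measured, had 3 higher and 0 lower with the highest median of the chromatin lists, 0.66, and mep-1, a partner of the remodeller LET-418, rose by 1.33. The DREAM and synMuv B list, 12 of 12 measured, had 0 called, and unadjusted p-values under 0.05 counted 1 higher and 1 lower. The nuclear periphery list, 7 of 8 measured, had 1 higher (mel-28) and 1 lower (lem-3).

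Over the 8 lists, 80 of 87 genes were measured, 11 were called higher and 8 lower at 4 h than at 0 h, and the median was 0.08. Of all probe sets, 7.11% were called higher and 9.57% lower in that comparison, and these shares also apply to each list above. Of all probe sets called, 42.6% were higher at 4 h, and that split depends on the scale, with 11.6% higher after centring on the hybridisation controls, which moved the median of all probe sets to -0.86, and 2.76% after centring on the ribosomal protein genes, which moved it to -1.24. On the ribosomal scale 5 of the 7 genes were called lower at 4 h, mes-2, mes-3, met-1, met-2 and set-25, in a setting that called 20830 of 22548 probe sets. Their differences on that scale were -1.31 for met-2, -1.36 for mes-3, -1.56 for set-25, -1.69 for met-1 and -2.07 for mes-2, against the median shift of -1.24.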

How the data were processed

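Biotin-labelled RNA of 15 embryo samples was read on 1-colour Affymetrix C. elegans arrays, per the labels' protocols. Per the submitters' processing notes, the authors used RMA (version not given) to make the deposited log2 values of 22625 probe sets. The method corrects background, normalizes between arrays and summarises probes, and it compresses low values. That the scale is log2 follows from the range of values, 1.77 to 14.2.

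The 77 control probe sets were left out, leaving 22548, of which 20810 had 1 symbol, 843 several and 895 none. Of those with 1 symbol, 20702 were named through Entrez identifiers. The brightest probe set stood for each of 17138 genes. Coordinates are not printed, since the annotation states no build. Array titles gave the groups, and 0 columns had no sample. A single limma 3.58.1 model under R 4.3.3 (lmFit, eBayes) held all 5 times, and a call meant a p under 0.05 after Benjamini-Hochberg adjustment across the 22548 probe sets. The median SE of a 4 h minus 0 h difference was 0.19.

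The members, lists, tests and alternatives were chosen with earlier results of these data known. Named genes are the members, list genes and, for each member, the 3 genes most correlated over the arrays. Alternatives covered the time tags, the 1 h arrays, each array left out, the letters as a block, 3 centrings, a filter, a floor, the variance prior, the times fitted and other probe sets. Same-letter arrays of different times had deviations correlated from -0.30 to 0.33, so the letters were not taken as pairs. On simulated data with 22548 probe sets, the 4 h against 0 h test recovered 61 of 100 probe sets changed by 1 log2 unit and 90 of 100 changed by 2, with 7 false calls. Far fewer probe sets were changed there than the 3760 called in the data. The adjusted threshold was therefore stricter in the simulation, and its recovery rates need not hold for the data.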

Additional observations from a re-analysis of the deposited data

Results flagged for a closer look

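The late change of mes-3 differed from its early change. The 4 h minus 2 h difference less the 2 h minus 0 h difference was -2.09 ± 0.53 (log2, SE, limma adjusted p = 0.023), a test of the difference itself between the later and the earlier stretch. All 3 arrays of 2 h lay above all 3 of 4 h and of 0 h. It lost its call without 2 h B, at -1.35 (adjusted p = 0.13), and without 2 h C, at -2.13 (adjusted p = 0.075), and ran from -2.80 to -1.35 over the fits that left out an array. The call was also lost by the time tags, at -1.74 (adjusted p = 0.085), with values floored at the background mark, at -1.70 (adjusted p = 0.075), with centring on the hybridisation controls, at -1.59 (adjusted p = 0.88), and with centring on the ribosomal protein genes, at -0.75 (adjusted p = 0.19). The 0 h and 4 h values lay under the background mark, and their part in the result was not tested.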

How the results depend on the processing

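Each count was recomputed under up to 25 alternatives. For 4 h against 0 h, 1 of the 7 genes was called, 0 after centring on the hybridisation controls and 5 after centring on the ribosomal protein genes, and 1 whichever array was left out. For 2 h against 0 h, the count of 1 became 0 by the time tags, with the replicate block, with median or hybridisation control centring, with the floor and with only the 2 times fitted, 5 with ribosomal centring, and 0 to 1 without an array. For 4 h against 2 h, the count of 0 became 1 by the tags, without both conflicting arrays, with the replicate block, ribosomal centring, trend and robust prior or only 2 times, 2 with the filter on background, which dropped met-1, and 0 to 1 without an array. For 2 h against 1 h, 0 became 1 with median centring, 4 with ribosomal centring, and 0 to 1 without an array. For late minus early change, 1 became 0 by the tags, with hybridisation centring or the floor, 2 with ribosomal centring (set-25 and hpl-2, with mes-3 not called at -0.75), and 0 to 2 without an array. For the F test, 1 became 0 with median or hybridisation centring, 6 with ribosomal centring, and 0 to 2 without an array (0 without 4 h B or 4 h C). The counts for 1 h against 0 h, 3 h against 2 h and 4 h against 3 h were 0 in all 25.

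Among the 8 chromatin lists, the 11 genes called higher became 3 by the tags, 6 with median centring, 2 with hybridisation or ribosomal centring, 7 with the floor, and 5 to 11 without an array (5 without 0 h C). The 8 called lower became 57 with ribosomal centring, 4 with the floor, and 3 to 9 without an array (3 without 0 h C or 4 h C). These list counts, and those of the second probe sets, were rerun after seeing the data.

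Of differences called with or without an alternative, these changed sign. For 2 h against 0 h ribosomal centring gave -0.31 for mes-3, -0.62 on 188017_s_at, -1.103 for met-1, -1.26 for met-2 and -1.19 for hpl-2. For 4 h against 0 h it gave -1.31 for met-2 and -0.20 for hpl-2, and for 2 h against 1 h -0.97 for hpl-2 and -0.26 for 188017_s_at. Hybridisation centring gave -0.019 for 188017_s_at at 2 h against 0 h, and probe set 172918_x_at -0.011 for hpl-2 at 4 h against 0 h. Either centring moves every probe set in a comparison by the same amount. The median of all probe sets at 2 h against 0 h became -1.32 with ribosomal and -0.71 with hybridisation centring. For 4 h against 0 h it became -1.24 with ribosomal centring. Why the averages used for centring differed between hours was not tested. Differences that were not called also changed sign under other alternatives, such as met-2 at 4 h against 0 h, below 0 in 7 of 25, and mes-4 at 4 h against 2 h, below 0 in 5 of 25. Signal over background limits mes-3, met-1 and met-2. The arrays' letters carry no stated pairing, and the replicate block gave mes-3 at 2 h an adjusted p of 0.061.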
